A study of Mus musculus with 2 samples.

Results

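The nuclear-encoded subunits of the oxidative phosphorylation complexes were followed along the cell cycle of mouse cortical neurospheres. They were the rows of the expression table whose gene symbol opens with Nduf, Sdh plus a letter from a to d, Uqcr, Cox plus a digit from 4 to 8, or Atp5, apart from symbols that hold -ps. The rule took 74 of the 10666 genes, and 1 symbol, Ndufb1-ps, was left out by it. Of the 74 genes, 64 encode subunits of the enzymes: 28 of complex I, 4 of complex II, 5 of complex III, 12 of complex IV and 15 of complex V. The other 10 are 9 assembly factors, which help to build complex I or complex II and are not part of the finished enzyme, and Atp5s, an associated factor. Ndufa4 carries a complex I name but was counted with complex IV, to which it belongs, and Cox7a2l, a factor of supercomplexes of the respiratory chain, was counted there by its symbol. All 74 genes had a mean value of at least 0.1 in both cultures, so the filter on low values removed none of them. Subunits that are no row of the table under these names, among them Cox4i1, Uqcrfs1, Cyc1 and Ndufa13, were not analysed here.

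Neurospheres are balls of dividing neural progenitors kept in suspension. These came from the dorsal telencephalon of wild-type C57BL/6 mouse embryos of embryonic day 14.5 and grew with 10 ng/ml EGF and 10 ng/ml bFGF. Single-cell RNA-seq by droplets gave 5748 cells of culture 1 and 7057 of culture 2, which are replicates of 1 condition, and no source used here says whether they came from separate litters. Each cell has a cell-cycle position, an angle from 0 to 2π computed by the authors from its cell-cycle genes. On it G1/G0 lies around 0, G1/S and S between 0 and π, the end of G2 around π and the M stage around 1.5π. The study centres S-stage cells at 0.75π, the edge between the arcs around 0.5π and around π used below. As the methods of the study say, the libraries were made from spheres that had been dissociated and replated several times.

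Oxidative phosphorylation is the last stage of respiration in the inner mitochondrial membrane. Complexes I and II take electrons from NADH and succinate, complex III passes them to cytochrome c and complex IV hands them to oxygen, and complex V, the ATP synthase, makes ATP from the proton gradient that complexes I, III and IV build. A few core subunits are encoded by mitochondrial DNA, whose genes the authors removed from the table, and the other subunits are encoded in the nucleus and imported. Proliferating neural progenitors are known to lean on glycolysis, and the weight of oxidative phosphorylation is known to grow as they turn into neurons.

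With 1 condition and 2 cultures there is no pair of groups to test, cells are not replicates, and no p-value is given. Each result is a description, with the value of each culture side by side. The median of total UMIs (unique molecular identifiers, counted molecules) was 19477 for culture 1 and 14637 for culture 2. They moved with the position: the median was 18308 and 14105 around 0 and 22278 and 17440 around π, cultures 1 and 2 in this order as everywhere below. The deposited values are scaled to equal depth, so they measure a share of a cell's RNA and not molecules per cell, and results are also given after multiplying each value by the total UMIs of its cell. The cells carried the progenitor markers: Fabp7 had a mean value of 91.9 and 90.7, Vim of 29.9 and 29.6, Nes of 4.71 and 4.46 and Hes1 of 0.868 and 0.900. Pax6, a progenitor gene of the dorsal telencephalon, was low at 0.215 and 0.205 and above 0 in 21.1% and 23.1% of cells. Of the neuron markers Dcx had 0.0918 and 0.0905 and Rbfox3 0.0442 and 0.0419, but Map2 had 1.76 and 1.68 and was above 0 in 77.7% and 63.6% of cells. Olig2, an oligodendrocyte lineage marker, had 5.71 and 5.57, while of the markers of oligodendrocyte progenitors Pdgfra had 0.104 and 0.0864, Cspg4 0.138 and 0.173 and Sox10 0.0482 and 0.0896. Of the listed markers of microglia, endothelium and erythroid cells 0 are rows of the table, which does not show that they were not expressed. Other lists are incomplete too, with 5 of 6 progenitor, 3 of 5 neuron and 4 of 5 oligodendrocyte progenitor markers in the table. The libraries shared 48 cell barcodes, and the results without those cells are given beside the counts they touch.

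Sequences upstream of a RefSeq start are shown for the members whose behaviour sets them apart below, and for those most like them. Subunit c of the ATP synthase ring is encoded by Atp5g1, Atp5g2 and Atp5g3, whose mature proteins are known to be the same, so that these genes differ mainly in their control regions and import sequences. Cox6b1 and Cox6b2 encode the common and the testis form of complex IV subunit 6B, and Cox6a1 is printed as a member whose upstream bases hold matches to the core of the NRF1 motif. NRF1 and GABP, an ETS factor, are known activators of many respiratory chain genes. Each run is the longest stretch, outside annotated exons, of the window around the RefSeq start of the gene, given 5′ to 3′ on the gene's strand from RefSeq's GRCm38.p6 build. They are chr11:96075671-96075881 (Atp5g1), chr15:102671128-102671297 (Atp5g2), chr2:73911327-73911576 (Atp5g3), chr7:30626152-30626364 (Cox6b1), chr7:4753095-4753225 (Cox6b2) and chr5:115348982-115349129 (Cox6a1), all on the minus strand. The run of Atp5g2, and its site shown after the runs, lie inside the annotated gene and are upstream of, or near, that RefSeq start only. Capitals mark matches to CGCANGCGC, the NRF1 core, on either strand.
Atp5g1: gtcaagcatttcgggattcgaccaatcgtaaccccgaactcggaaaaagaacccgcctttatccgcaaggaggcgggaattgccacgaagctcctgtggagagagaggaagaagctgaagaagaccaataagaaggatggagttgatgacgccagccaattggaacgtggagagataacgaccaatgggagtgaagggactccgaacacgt
Atp5g2: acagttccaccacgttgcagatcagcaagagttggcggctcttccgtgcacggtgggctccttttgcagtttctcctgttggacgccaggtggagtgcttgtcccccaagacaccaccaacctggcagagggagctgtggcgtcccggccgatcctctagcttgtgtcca
Atp5g3: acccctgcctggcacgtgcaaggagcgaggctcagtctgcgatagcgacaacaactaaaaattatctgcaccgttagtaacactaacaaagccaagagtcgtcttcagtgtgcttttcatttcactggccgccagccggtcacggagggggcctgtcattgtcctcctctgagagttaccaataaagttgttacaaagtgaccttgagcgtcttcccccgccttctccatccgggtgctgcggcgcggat
Cox6b1: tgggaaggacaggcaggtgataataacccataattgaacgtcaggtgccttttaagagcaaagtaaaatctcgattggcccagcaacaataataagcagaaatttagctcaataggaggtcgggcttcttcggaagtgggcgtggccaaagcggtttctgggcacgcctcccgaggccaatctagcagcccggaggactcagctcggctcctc
Cox6b2: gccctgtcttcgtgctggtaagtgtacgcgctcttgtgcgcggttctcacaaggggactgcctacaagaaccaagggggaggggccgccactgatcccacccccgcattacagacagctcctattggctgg
Cox6a1: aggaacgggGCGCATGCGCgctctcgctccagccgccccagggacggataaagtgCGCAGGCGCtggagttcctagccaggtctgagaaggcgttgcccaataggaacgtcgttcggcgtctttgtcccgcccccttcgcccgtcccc
Of the matches outside these runs, 2 are shown as 30 bases each, with capitals for the NRF1 core in Atp5g2 (chr15:102671070-102671099) and for CCGGAAG, the ETS core, in Cox6b1 (chr7:30626124-30626153), where it lies on the opposite strand. Those in the windows of Atp5g3 (NRF1 core) and Cox6a1 (ETS core) are not printed.
Atp5g2 site: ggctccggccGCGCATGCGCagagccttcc
Cox6b1 site: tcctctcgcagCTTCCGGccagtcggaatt

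These letters were searched in windows from 250 bases before to 50 bases after the RefSeq start, on both strands, for the 53 subunits and the 8312 genes of the table that have such a window. The NRF1 core stood in 15 subunit windows (28.3%) against 15.3% of all windows, the ETS core in 12 (22.6%) against 19.3%, and AANATGGCG, the YY1 core, in 6 (11.3%) against 5.88%. In the 5767 windows of genes past the filter on low values, which all subunits pass, these shares were 17.5%, 21.5% and 6.83%. In complex V the NRF1 core stood in 6 of 12 windows, and in complex IV in 1 of 11, that of Cox6a1. Among the subunit c genes it stood in the windows of Atp5g2 and Atp5g3 and not in that of Atp5g1. For Cox6b2 none of the 3 searched runs of letters is in the window. Subunits with and without an NRF1 core had nearly the same ratio around π against around 0, with median log2 values of -0.29 and -0.17 with it and -0.29 and -0.18 without it. A match of letters is a description and no sign that a factor binds.

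The subunits were among the most abundant transcripts of these cells. Summed over the 64 genes they made up 5.87% of all values of a cell in culture 1 (SD over cells 1.27, n = 5748 cells) and 5.94% in culture 2 (SD over cells 1.19, n = 7057 cells), although they are 0.600% of the genes. Of the 64 subunits 47 (73.4%) had a mean value of at least 5, over both cultures, against 3.23% of all genes, and 13.6% of all genes at that level were subunits. The median mean value of a subunit was 8.82 and 8.97, against 0.446 and 0.414 over the 7205 genes with a mean value of at least 0.1 in both cultures. Values count molecules by their 3′ ends and are not divided by gene length, so a level here is a level of 3′ tags. A factor that the scaling gave to each gene in each culture, described with the processing, also enters them, so no difference in level between the cultures is read.

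The complexes took unequal shares of these values. Complex V held 32.6% and 31.9% of the summed subunit values and complex IV 30.05% and 31.2%, while complex I, with the most genes, held 25.8% and 25.7%. Complex III held 9.02% and 8.85%, and complex II, which also works in the tricarboxylic acid cycle, 2.55% and 2.38%. The median mean value of a subunit was highest in complex IV (17.1 and 17.4) and lowest in complex II (3.27 and 3.18), with 15.6 and 15.8 in complex III, 14.3 and 14.9 in complex V and 5.73 and 5.57 in complex I. Within complex I the 7 core subunits, most of which bind the flavin or iron-sulphur clusters, had a median of 4.42 and 4.20, below the 21 accessory subunits at 6.54 and 6.78.

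Of the 12 genes with the highest mean value, 6 belong to complex IV. Cox8a, a small subunit of complex IV, led with 32.2 and 33.9, ahead of Cox7c with 28.2 and 30.3. Atp5b, the catalytic beta subunit of the ATP synthase, followed with 27.9 and 23.9. Atp5b held this place in both cultures, but in culture 2 its value lay beside the 23.6 of Ndufa4. Ndufa4 had 23.1 in culture 1, Cox6c 20.9 and 21.8, and Cox6b1 19.6 and 19.8. Next came Atp5mpl, a small subunit of the ATP synthase, with 19.3 and 19.7, and Atp5l, subunit g, with 19.2 and 19.1. Uqcrb had 18.5 and 17.7, Cox5a 17.98 and 18.004, Atp5g1 17.4 and 17.8, and Ndufc2 17.8 and 16.2. The order of Uqcrb, Cox5a, Atp5g1 and Ndufc2 was not the same in both cultures, and in culture 1 Atp5mpl and Atp5l were nearly equal. The factor that the scaling gave to each gene also enters this order, so the order of genes with near values is not read as a result.

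**Figure D1:**
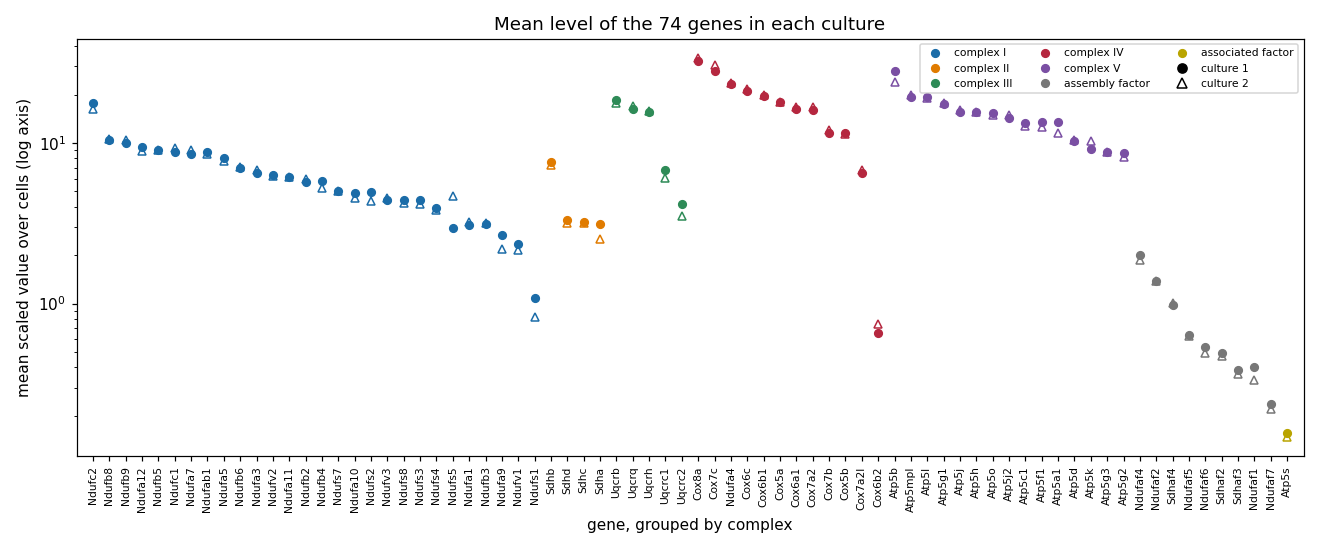
Mean scaled value (log axis) of each of the 74 genes over the cells of culture 1 (filled circles) and culture 2 (open triangles), grouped by complex and ordered by level within it. Cox8a was highest at 32.2 and 33.9, Cox6b2 lay far below the other complex IV genes at 0.653 and 0.749, and the assembly factors lay below nearly all subunits.

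The low end held Cox6b2, some core subunits of complex I and the assembly factors. Among subunits Cox6b2 was lowest with 0.653 and 0.749, followed by Ndufs1, the largest core subunit of complex I, with 1.08 and 0.820, and Ndufv1, a flavin-binding core subunit, with 2.35 and 2.14. The assembly factors ran from 0.237 and 0.220 for Ndufaf7 to 2.01 and 1.87 for Ndufaf4, and Atp5s had 0.157 and 0.148. Within isoform families the common form was the more abundant: Cox6b1 was far above Cox6b2, and Cox7a2 had 16.1 and 16.7 where the related Cox7a2l had 6.50 and 6.77. Cox6a2, Cox7a1, Cox7b2, Cox8b, Cox8c, Cox4i2 and Ndufa4l2, the other forms on the list, are no rows of the table and were not analysed here.

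Cox6b2 and Ndufs5 stood out by their spread over cells. Cox6b2 had a value above 0 in 24.7% of cells of culture 1 (95% exact binomial interval 23.6 to 25.9) and in 41.7% of culture 2 (40.6 to 42.9), intervals that cover counting error only. In culture 1 its mean rested on few cells, since the 99th percentile was 8.41 and the maximum 48.8, and in culture 2 these were 6.16 and 16.7. Ndufs5, an accessory subunit of complex I, had a mean of 2.95 and 4.70 but a value above 0 in 53.2% and 75.05% of cells. Ndufb3, with a mean of 3.14 and 3.16, was above 0 in 94.1% and 88.5% of cells. Ndufs5 was thus 0 in more cells than Ndufb3 in both cultures, at a like mean in culture 1 and a higher mean in culture 2. The factor that the scaling gave to each gene in each culture also enters the means of these genes. Its part in their spread over cells was not tested.

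Along the cell cycle, the subunits as a group took a smaller share of a cell's RNA around π than around 0. The summed share was 6.44% around 0 and 5.33% around π for culture 1, which is 17.2% lower, and 6.21% and 5.48% for culture 2, which is 11.8% lower. Around 0.5π it stood at 5.64% and 5.64%, and around 1.5π at 5.78% and 5.90%. The SD over cells was 1.352 and 1.246 percentage points around 0 and 0.945 and 0.972 around π, so single cells of the arcs overlapped widely. The arcs are 0.5π wide and held 2459 and 3991 cells around 0, 1084 and 932 around 0.5π, 2056 and 1666 around π, and 149 and 468 around 1.5π, so the values around 1.5π rest on the fewest cells, above all in culture 1. The share also moved with depth in culture 1, where it was 5.24% in the 1437 cells with the fewest UMIs and 6.07% in the 1437 with the most. In culture 2 the like 1765 cells had 5.82% and 5.83%. The part of depth in the pattern was not tested, and values are given below for each scale, with total UMIs in the fit and in cells with middle total UMIs.

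The fall was shared by nearly every subunit. On the deposited scale 63 of 64 subunits had a lower mean value around π than around 0 in culture 1 and 62 of 64 in culture 2, and 62 of 64 were lower in both, where 47.1% of all genes were lower by any amount in both cultures and 66.1% of the genes at a mean value of at least 5. The exceptions were Atp5g2, with a log2 ratio of 0.06 and 0.07, and Ndufa5, an accessory subunit of complex I, with -0.16 and 0.03. The median log2 ratio of the subunits was -0.29 and -0.18, that of all genes -0.06 and -0.02. After multiplication by total UMIs the subunit median turned to 0.03 and 0.11 and that of all genes to 0.28 and 0.28, so the direction depends on the scale: lower as a share of RNA, slightly higher in molecules per cell. Only 5 subunits (Ndufs5, Ndufv3, Uqcrc1, Uqcrc2 and Cox6b2) were lower in both cultures on that scale, beside 11.6% of all genes.

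Multiplication by total UMIs raised nearly all genes alike, so the place of the subunits relative to all genes is nearly fixed between the scales and the second is no independent support for the first. The subunit median lay below the median of all genes by 0.23 and 0.16 in log2 on the deposited scale and by 0.25 and 0.17 after multiplication. On each scale 62 of 64 subunits were below the all-gene median in both cultures, all but Atp5g2 and Ndufa5, where 41.3% of all genes were on the deposited scale and 41.4% on the other. In counted molecules per cell the summed subunit values around π were 1.04 and 1.09 times those around 0, while total UMIs were 1.255 and 1.231 times as high. The change of a single subunit was small: 9 were over 1.2-fold lower around π in both cultures, where 15.7% of all genes were, and 0 were over 1.2-fold higher, where 16.8% of all genes were. The 9 were Ndufs3, Ndufs5, Ndufv3, Sdhb, Uqcrc1, Uqcrc2, Uqcrh, Cox6b2 and Atp5g1, a share near that of all genes, so the count of falls of this size in both cultures is no result about the subunits. In culture 1 by itself 39 were over 1.2-fold lower, beside 26.5% of all genes, and in culture 2 by itself 9, beside 20.04%. Without the cells of shared barcodes the 9 became 11, and 37 in place of 38 subunits varied with the position by the measure described next.

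**Figure D2:**
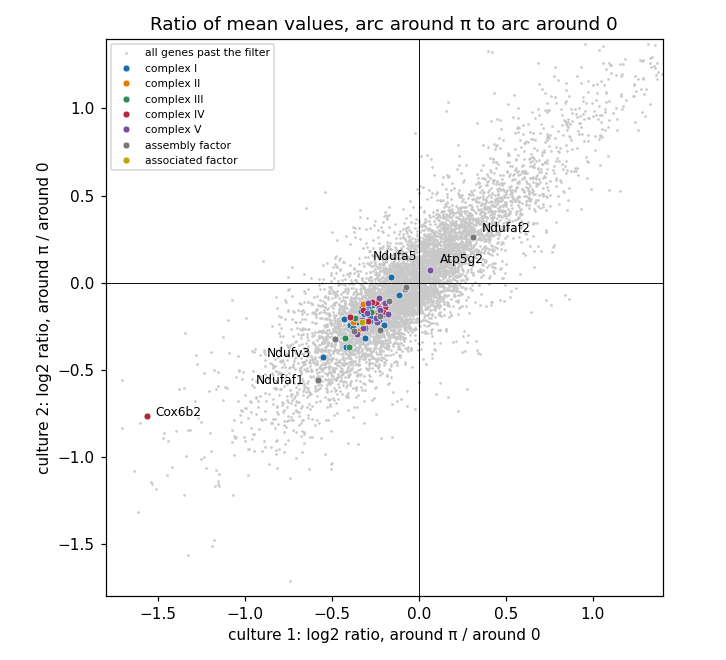
Log2 ratio of the mean value around π to that around 0 in culture 1 (x axis) and culture 2 (y axis), with the genes past the filter in grey and the 74 members coloured by complex; some grey points lie outside the axes. The subunits cluster in the lower left, with a median of -0.29 and -0.18, while Cox6b2 lies far out and Atp5g2 and Ndufaf2 lie above 0 on both axes.

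Around 0.5π, an arc that ends where the study centres S-stage cells, the subunits also took a smaller share than around 0. The median log2 ratio of the subunits to the arc around 0 was -0.20 and -0.15, against -0.03 and 0.03 for all genes, and 63 of 64 were lower in both cultures, where 40.2% of all genes were, with Ndufc2 (-0.11 and 0.00) as the exception. Over 1.2-fold lower in both cultures were 2 subunits, Uqcrc2 and Cox6b2, beside 8.02% of all genes, and 0 were higher, beside 15.1%. After multiplication by total UMIs the subunit median there was -0.01 and -0.01, against 0.15 and 0.15 for all genes, with 32 of 64 subunits lower in both cultures (16.7% of all genes) and 16 higher (67% of all genes). Around 1.5π the subunits lay between the other arcs, with a median of -0.15 and -0.07 against -0.07 and -0.04 for all genes. There 51 of 64 were lower in both cultures, beside 42.6% of all genes, 1 (Ndufv3) over 1.2-fold, beside 13.6%, and 0 were over 1.2-fold higher, beside 8.59%. After multiplication the median around 1.5π was -0.52 and -0.20, against -0.42 and -0.16 for all genes, and 62 of 64 subunits were lower in both cultures, beside 70.8% of all genes.

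A fit of log2(value + 1) on 2 harmonics of the position measured how much of a gene's variation over cells the position carries. R2 was at least 0.01 in both cultures in 38 of 64 subunits (59.4%), where 20.2% of all genes passed. Among genes with a mean value of at least 5 it passed in 32 of 47 subunits (68.1%), where 50.4% of all genes at that level did. In culture 1 by itself 57 subunits passed, beside 30.8% of all genes, and in culture 2 by itself 38, beside 23.2%. The log2 ratio around π was lower in culture 1 than in culture 2 for 62 of 64 subunits, where it was for 4299 of all 7205 genes. With total UMIs in the fit 46 subunits passed, beside 19.99% of all genes. All R2 values were small: the largest lower value of the cultures was 0.046, whereas Top2a, a G2 gene, had 0.666 and 0.655, Hmgb2 0.832 and 0.739, Pcna, an S gene, 0.596 and 0.430, and Mcm6, also an S gene, 0.479 and 0.334. The fitted line of the 38 subunits had its minimum at a median of 1.17π and 1.11π, and it was highest within 0.5π of 0 in all 38 in both cultures. Its range had a median of 0.37 and 0.24 on the log2 scale.

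The 12 genes with the largest lower R2 came from all 5 complexes. Atp5b was first with an R2 of 0.0737 and 0.0460, and its mean value was 30.9 around 0, 26.8 around 0.5π, 24.9 around π and 28.7 around 1.5π in culture 1, and 25.2, 22.3, 21.0 and 25.9 in culture 2. Atp5g1 followed with 0.0659 and 0.0376, and Uqcrh, the hinge subunit of complex III, with 0.0546 and 0.0360. Atp5l had 0.0511 and 0.0338 and Cox6b1 0.0910 and 0.0330. The others were Ndufv3, Cox6a1, Uqcrq, Cox6b2, Ndufb9, Sdhb and Atp5d, with lower values of 0.0238 to 0.0289. In each of these except Cox6b2 the mean around π was between 12.9% and 31.8% below that around 0 in both cultures.

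Complex III had the lowest median of the complexes in both cultures with the arcs used here, though not under every alternative. Its median log2 ratio around π against around 0 was -0.37 and -0.26 as deposited and -0.03 and 0.04 after multiplication by total UMIs, and all 5 subunits passed the R2 threshold and were lower in both cultures. Beside the counts of each complex stand the same shares of all genes, 20.2% past the R2 threshold (50.4% at a mean value of at least 5) and 47.1% lower in both cultures. Mean values of single genes below are given on the deposited scale. Uqcrc1 and Uqcrc2 encode the core proteins on the matrix side. The mean value of Uqcrc1 went from 7.76 to 5.79 for culture 1 and from 6.46 to 5.19 for culture 2, and that of Uqcrc2 from 4.77 to 3.61 and from 3.82 to 2.96. Both stayed lower after multiplication by total UMIs, with log2 ratios of -0.11 and -0.04 for Uqcrc1 and -0.09 and -0.09 for Uqcrc2. Uqcrh fell from 17.4 to 14.0 and from 16.9 to 14.1, Uqcrq, a small subunit, from 18.4 to 14.3 and from 17.9 to 15.5, and Uqcrb from 20.3 to 16.8 and from 18.4 to 16.3. On the deposited scale complex II followed in both cultures, then complex I, and the order of complexes IV and V was not the same in both. This order changed with the setting. In the cells of culture 1 with middle total UMIs complex II had -0.47 and complex III -0.46. By the difference of mean log2(value + 1) complex II had -0.12 in culture 2, the smallest fall of all complexes.

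The 4 subunits of complex II fell alike, with a median log2 ratio of -0.33 and -0.20 (-0.02 and 0.09 after multiplication by total UMIs). Sdhb, the iron-sulphur subunit, was the most abundant at 7.65 and 7.30 and the only one with an R2 of at least 0.01 in both cultures (0.0442 and 0.0240). Its mean value fell from 8.58 to 6.74 and from 7.79 to 6.42. Sdha, the flavoprotein that oxidises succinate, fell from 3.47 to 2.78 and from 2.58 to 2.37, with log2 ratios of -0.32 and -0.12. The membrane anchors Sdhc and Sdhd fell by less than Sdhb in culture 2, Sdhc from 3.69 to 2.84 and from 3.34 to 2.85, and Sdhd from 3.55 to 2.99 and from 3.30 to 2.93.

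Complex I had a median log2 ratio of -0.30 and -0.19 (0.02 and 0.10 after multiplication by total UMIs), with 27 of its 28 subunits lower in both cultures (47.1% of all genes) and 11 past the R2 threshold (20.2% of all genes). Core and accessory subunits were alike, with -0.31 and -0.17 for the core and -0.29 and -0.21 for the others. Ndufv3, an accessory subunit of the module that oxidises NADH, had the lowest ratio of complex I and is annotated at chr17:31520115-31531331 on the plus strand (GRCm38, as for the other genes). Its mean value was 5.24 around 0, 4.33 around 0.5π, 3.58 around π and 3.30 around 1.5π in culture 1, and 5.01, 4.42, 3.73 and 3.80 in culture 2. It was the only subunit over 1.2-fold lower around 1.5π in both cultures, with log2 ratios of -0.67 and -0.40. Ndufs5 fell from 3.34 to 2.50 and from 5.07 to 3.92, and Ndufs3, a core subunit, from 4.90 to 3.96 and from 4.47 to 3.59. Ndufb9, an accessory subunit of the membrane arm, fell from 11.4 to 8.63 and from 11.1 to 9.42. At the other end Ndufab1, the acyl carrier protein, changed little, from 9.26 to 8.54 and from 8.66 to 8.23. Ndufa5 had 8.43 around 0 and 7.53 around π in culture 1 and 7.68 and 7.84 in culture 2, and it was highest around 1.5π in both cultures, with 9.48 and 8.72.

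Complex IV had a median log2 ratio of -0.26 and -0.15 (0.08 and 0.14 after multiplication by total UMIs), and 10 of its 12 genes passed the R2 threshold. The abundant genes moved by small steps: Cox8a fell from 35.2 to 29.2 and from 34.9 to 32.3, Cox7c from 30.1 to 26.4 and from 31.4 to 28.6, and Cox6a1 from 18.4 to 14.0 and from 17.7 to 15.4. Ndufa4 fell from 24.8 to 21.5 and from 24.5 to 21.8, and Cox7a2l from 7.09 to 5.98 and from 7.03 to 6.49. Cox7a2 had log2 ratios of -0.20 and -0.12, and Cox7b fell from 12.7 to 10.3 and from 12.6 to 10.8. The genes without a description here, Cox5a, Cox5b and Cox6c, had log2 ratios from -0.32 to -0.13.

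Cox6b2 (chr7:4751792-4753094, minus strand) differed from them in the size of its change. Its mean value was 1.02 around 0, 0.406 around 0.5π, 0.347 around π and 0.519 around 1.5π in culture 1, and 0.900, 0.451, 0.530 and 0.837 in culture 2. Around π it was 66.1% and 41.1% lower than around 0, and it was the only subunit over 1.5-fold lower in both cultures. Cox6b1, the common form whose upstream run is printed above, was 20.5% and 13.8% lower, from 21.9 to 17.4 and from 20.9 to 18.02. Around 1.5π the cultures parted for Cox6b2, with log2 ratios to the arc around 0 of -0.98 and -0.10. Its values are low and rest on few cells in culture 1, and the difference between the cultures there was not tested.

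Complex V had a median log2 ratio of -0.24 and -0.18 (0.09 and 0.12 after multiplication by total UMIs), with 14 of 15 subunits lower in both cultures and 11 past the R2 threshold. The F1 head and central stalk (Atp5a1, Atp5b, Atp5c1 and Atp5d) had a median of -0.27 and -0.24 and the other 11 subunits -0.23 and -0.16. Atp5d, the delta subunit of the central stalk, fell from 11.4 to 9.09 and from 11.01 to 9.17. The genes of subunit c did not move together. Atp5g1 (chr11:96068852-96075670) went from 19.5 around 0 to 15.2 around π for culture 1 and from 19.2 to 15.6 for culture 2, which is 21.8% and 18.5% lower. Atp5g3 fell from 9.39 to 8.22 and from 9.12 to 8.39. Atp5g2 (chr15:102662864-102672352) had 8.52 around 0, 8.39 around 0.5π, 8.89 around π and 8.90 around 1.5π in culture 1 and 8.02, 7.84, 8.43 and 8.85 in culture 2. Atp5g2 was thus the only subunit higher around π in both cultures on the deposited scale, by 1.04-fold and 1.05-fold, and after multiplication by total UMIs its log2 ratio was 0.39 and 0.39, above the median of all genes there. Of the summed subunit c values Atp5g1 held 52.1% and 52.8% around 0 and 47.1% and 48.1% around π, while Atp5g2 rose from 22.8% and 22.1% to 27.5% and 26.0% and Atp5g3 stayed between 25.1% and 25.9%. The R2 of Atp5g2 was 0.00350 and 0.00786, under the threshold in both cultures.

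**Figure D3:**
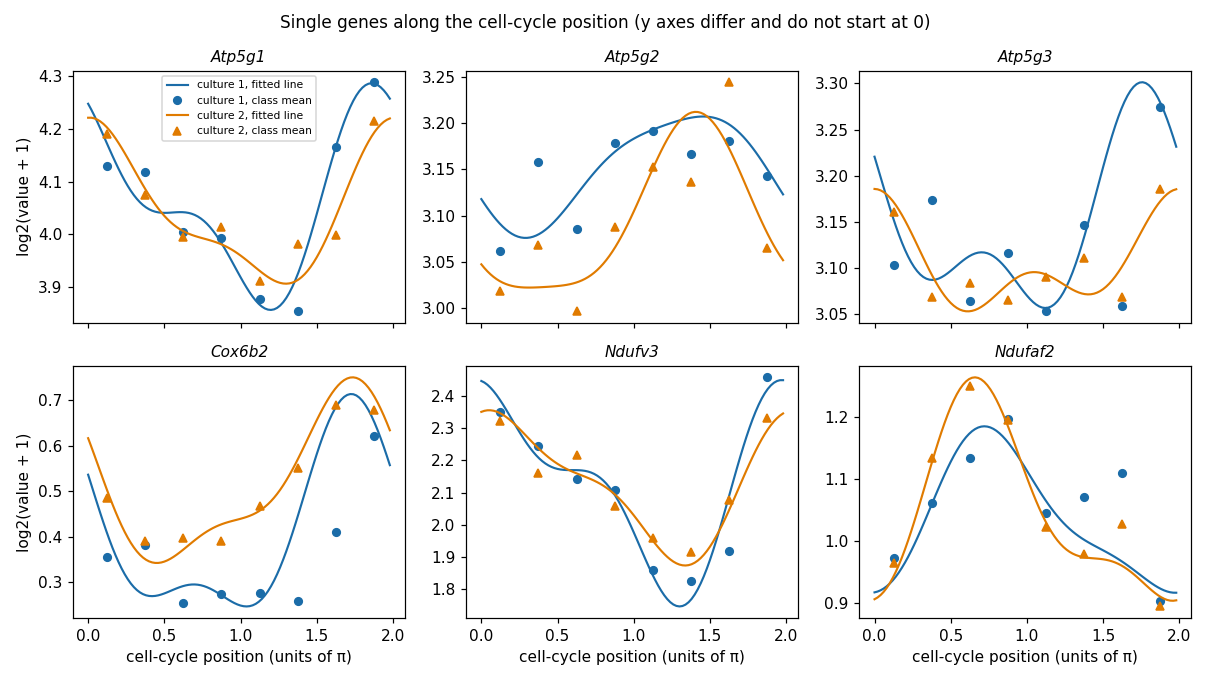
Log2(value + 1) against cell-cycle position, in units of π, for Atp5g1, Atp5g2, Atp5g3, Cox6b2, Ndufv3 and Ndufaf2 in culture 1 (blue, circles) and culture 2 (orange, triangles); points are means over cells in 8 classes of position, lines are the fits with 2 harmonics, and the y axes differ. Atp5g1 and Ndufv3 were lowest past π, Cox6b2 was highest before 2π, and the fitted line of Ndufaf2 was highest between 0.5π and π.

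Of the 9 assembly factors 8 were lower around π in both cultures, beside 47.1% of all genes, and Ndufaf2 was higher. Their median log2 ratio around π was -0.22 and -0.19, and 2 of 9 passed the R2 threshold, Ndufaf2 and Sdhaf4, a share near the 20.2% of all genes. Ndufaf2 (chr13:108002715-108158623, minus strand), an assembly factor of complex I, was higher where the subunits were lower: its mean value was 1.21 around 0, 1.52 around 0.5π, 1.505 around π and 1.53 around 1.5π in culture 1, and 1.247, 1.748, 1.495 and 1.451 in culture 2. Its log2 ratio around π was 0.31 and 0.26 as deposited and 0.63 and 0.56 after multiplication by total UMIs. Ndufaf4 was also higher around 0.5π than around 0 in both cultures, with 2.26 against 2.09 and 2.15 against 1.88, but lower around π with 1.79 and 1.64. Ndufaf1, which builds the membrane arm of complex I, fell by 33.0% and 32.2% around π, from 0.474 to 0.318 and from 0.365 to 0.248. Sdhaf4, which helps to mature Sdha, fell from 1.16 to 0.834 and from 1.13 to 0.899 around π and to 0.613 and 0.616 around 1.5π. Sdhaf2 was over 1.2-fold lower in both cultures as well, beside 15.7% of all genes. Ndufaf5, Ndufaf6 and Ndufaf7 were at most 11.3% lower around π, with R2 values of at most 0.00241. Sdhaf3 and Atp5s had log2 ratios of -0.22 and -0.27 and of -0.32 and -0.23.

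The course over 8 classes of position was similar for all complexes. On the deposited scale the medians of each complex were highest in the last class before 2π and, in culture 1, lowest in the first class past π, where complex III reached -0.41 and complex V -0.27. In culture 2 the medians of the 3 classes from 0.5π on lay between -0.14 and -0.28, with complex III lowest in the first class past π. After multiplication by total UMIs the medians of the complexes lay below that of all genes in the classes from 0 to 1.5π in both cultures, and all of them, with all genes, dropped in the class that ends at 1.5π, where total UMIs dropped as well.

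**Figure D4:**
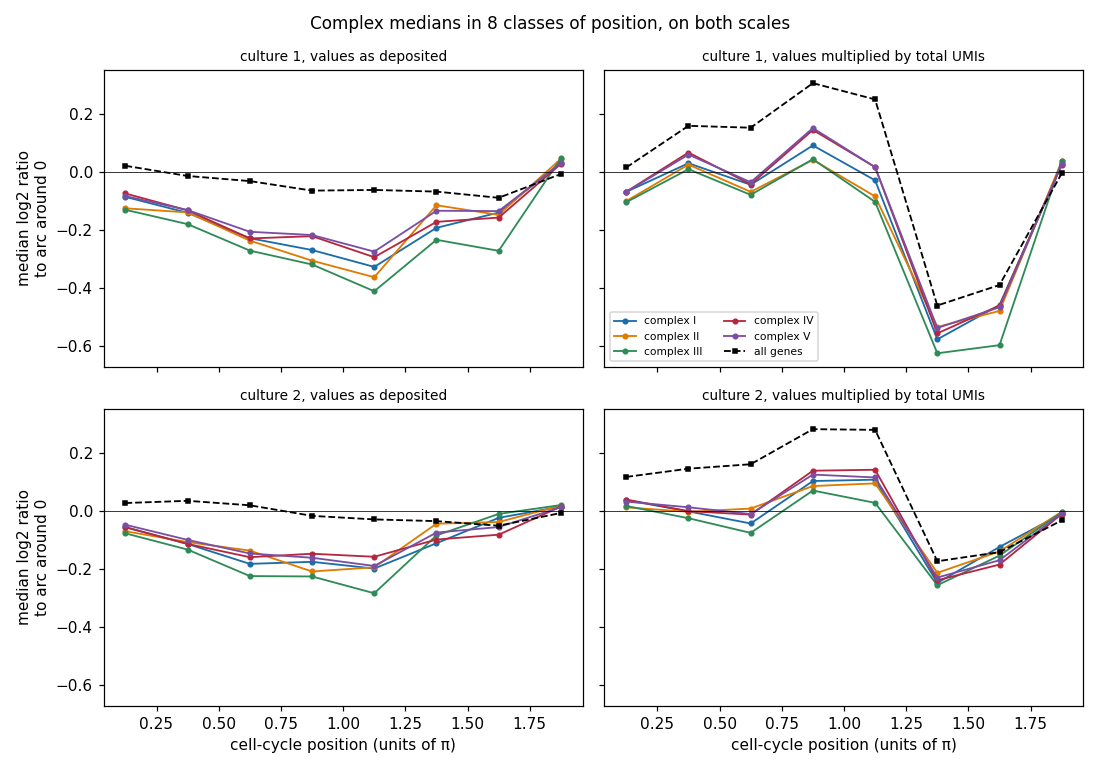
Median log2 ratio to the arc around 0 over the subunits of each complex (coloured lines) and over all genes past the filter (dashed) in 8 classes of cell-cycle position, for culture 1 (top) and culture 2 (bottom), as deposited (left) and after multiplication by total UMIs (right). As deposited the complexes sink to between -0.27 and -0.41 in the first class past π in culture 1, and on both scales they run below all genes from 0 to 1.5π.

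Cells in which 1 complex took a larger share of the RNA tended to have larger shares of the others. Across cells the log2 sums of the complexes correlated with a median Pearson r of 0.758 over the 10 pairs in culture 1 (n = 5748 cells) and 0.676 in culture 2 (n = 7057 cells). The highest pair was complexes I and V with 0.846 and 0.788, and the lowest pairs held complex II, which has the fewest genes and counts. The cells of a culture share a library and the sums share the scaling of the cell, so these values are descriptions. The sums also move together along the position, and no other group of genes was correlated for scale. The part of the position in these values was not tested.

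Other genes of the pathway moved in part with the subunits. Of the 17 genes of the tricarboxylic acid cycle and pyruvate dehydrogenase, 14 were lower around π in both cultures, beside 47.1% of all genes, and 3 over 1.2-fold, a share near the 15.7% of all genes, with a median log2 ratio of -0.30 and -0.13. After multiplication by total UMIs their median was 0.02 and 0.13, with 2 lower in both cultures (11.6% of all genes) and 11 higher (76.3% of all genes). Suclg1, a subunit of succinyl-CoA ligase and 1 of the 3, fell from 3.98 to 3.17 and from 3.53 to 2.87, and Mdh2, malate dehydrogenase, from 10.2 to 8.22 and from 8.85 to 7.55. Of 4 exchange carriers 3 were lower in both, and Slc25a4, the ADP/ATP carrier, had an R2 of 0.0962 and 0.0572, above every subunit in culture 2, and a log2 ratio of -0.36 and -0.31. Of 23 assembly factors outside the rule that passed the filter, 16 were lower in both cultures (47.1% of all genes), 6 of them over 1.2-fold (15.7%). Of 12 regulators that passed it, 8 were higher in both cultures (36.9% of all genes), 4 of them over 1.2-fold (16.8%), among them Nrf1 (log2 ratios 1.08 and 1.17) and Gabpb1, a GABP subunit (1.153 and 1.254), while Esrra, a nuclear receptor of energy metabolism, was lower (-0.72 and -0.47). The levels of Nrf1 and Gabpb1 are low, with mean values of 0.225 and 0.209 and of 0.246 and 0.190.

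Genes of the mitochondrial ribosome lay closer to all genes than the subunits did. The median log2 ratio around π of 55 mitochondrial ribosomal protein genes was -0.07 and -0.07. In both cultures 28 of them were below the median of all genes, where 41.3% of all genes were. That of 61 cytosolic ribosomal protein genes was -0.03 and -0.09, with 16 below it. Glycolysis genes were also lower around π, with a median of -0.29 and -0.29 over 11 genes (0.03 and -0.01 after multiplication by total UMIs). In both cultures 10 were below the all-gene median, and 5 were over 1.2-fold lower, beside 15.7% of all genes. Around 0.5π their course was unlike that of the subunits. Their median there was -0.12 and 0.01, with 5 of 11 lower in both cultures, beside 40.2% of all genes. Pkm had -0.21 and -0.29, Gpi1 -0.52 and -0.49 and Eno1 -0.29 and -0.24. These differences between groups of genes were not tested.

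The members without a value of their own above had log2 ratios around π of -0.43 to -0.09. Of the 74 genes 13 overlap another gene of the table in the annotation, among them Ndufaf2 (with Smim15), Sdhaf2, Ndufs3 and Cox5a, all on the opposite strand except for Gm42420 over Ndufb2. Several members, the subunit c genes among them, have near copies elsewhere in the genome, and how the counting split such reads was not tested.

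Markers of astroglia moved with the subunits. Of 4 listed markers 2 are rows, and both were lower around π: Aldh1l1 had log2 ratios of -0.53 and -0.62 and S100b of -1.71 and -0.84, with mean values over all cells of 0.769 and 0.722 and of 0.300 and 0.148. In the cells with a value of 0 for both, 2747 and 4704 cells, the median log2 ratio of the subunits was -0.30 and -0.18, beside -0.29 and -0.18 in all cells. A value of 0 for markers this low does not show that a cell holds no astroglial RNA, and the part of these markers in the result was not tested. Of the progenitor markers Vim and Nes were nearly level in culture 1 (-0.02 and 0.03) and lower in culture 2 (-0.73 and -0.44), and Pax6 was higher in both (0.96 and 1.37). The part of the progenitor markers was not tested either.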

How the data were processed

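Droplet single-cell RNA-seq libraries of 2 neurosphere cultures of 1 condition were analysed. The labels and the methods of the study name different versions of the 10x Genomics kit. The submitters' processing notes name alevin, Salmon 1.3.0 and Seurat 3.2.2, and by the methods the authors took spliced counts against GRCm38, removed cells with few genes or outlying totals, mitochondrial shares or doublet scores, and removed mitochondrial genes and rarely detected genes. What the authors deposited per gene and cell is a linear signal, scaled to nearly equal depth per cell. The total of each cell is a sum of estimated counts of UMIs, deposited by the authors beside the cell-cycle position and a stage call. The value that 1 UMI takes could be read for 8858 genes and differed between the cultures by a median of 0.18 in log2, with opposite deviations for the same gene (Pearson r across genes -0.89, genes not being independent). No source used here describes that adjustment. It cancels from ratios within a culture.

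Genes were matched to symbols by Ensembl ID, giving 10662 symbols for 10666 genes, and coordinates are those of the GENCODE annotation of GRCm38. Genes with a mean value of at least 0.1 in both cultures were kept. In each culture log2(value + 1) was fitted on 2 harmonics of the position, and a gene was counted at an R2 of at least 0.01 in both. Mean values were compared between arcs 0.5π wide centred on 0, 0.5π, π and 1.5π, as log2 ratios of mean scaled values without a pseudocount, and a gene was counted past 1.2-fold in the same direction in both cultures. The scripts were tested on simulated data and used pandas 2.3.3, scipy 1.17.1, numpy 2.4.6 and matplotlib 3.10.9 under Python 3.11.15. The members and gene lists were chosen with earlier results of these data known. Named with values were the members with the 12 highest levels, the 12 largest lower R2 values, the 8 lowest and 8 highest ratios, those of complex II and of isoform families, and at most 3 genes of each other list, with other members given where a count or comparison turns on them. Promoter windows were found for 61 of the 74 genes, and where a gene had several the first was taken. Alternatives were another pseudocount, number of harmonics, threshold, filter, arc width, cell selection and scale, and each culture by itself.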

Additional observations from a re-analysis of the deposited data

How the results depend on the processing

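No paired analysis was possible because there was 1 group, with no other group to pair its cultures with. With 2 cultures the spread between replicates is itself poorly known, and the depth per cell limits genes of low level such as Cox6b2 and the assembly factors. On the values multiplied by total UMIs the mean over cultures of the median log2 ratio of the subunits around π turned from -0.24 to 0.070, and the complex medians to 0.063 for complex I, 0.034 for complex II, 0.0053 for complex III, 0.11 for complex IV and 0.10 for complex V. There 1 subunit was over 1.2-fold lower and 1 higher in both cultures (2.86% and 43.1% of all genes), against 9 and 0 as deposited. The 9 became 2 by the difference of mean log2(value + 1), 16 with arcs 0.25π wide, 51 at 1.1-fold and 1 at 1.5-fold, beside 0.597%, 18.1%, 28.8% and 2.96% of all genes. The median of complex V was -0.27 in the cells with middle total UMIs, against -0.21. The subunit median in those cells was -0.39 and -0.20, against -0.29 and -0.18 in all cells, and that of all genes there was -0.02 and -0.03. The 38 subunits that varied with the position became 13 at an R2 of 0.02 and 0 at 0.05 (11.3% and 5.44% of all genes), and 14 other settings left the count within 1.5 times. The summed share of 5.91% became 5.73% as a median over cells, 5.97% with all 74 genes and 5.67% in the cells without S100b and Aldh1l1. Taking each culture by itself gave 38 to 57 subunits varying with the position, 9 to 39 lower and 0 to 0 higher past 1.2-fold, a subunit median of -0.29 to -0.18 and a share of 5.87% to 5.94%. The complex medians then ran from -0.30 to -0.19 for complex I, -0.33 to -0.20 for complex II, -0.37 to -0.26 for complex III, -0.26 to -0.15 for complex IV and -0.24 to -0.18 for complex V. The settings without cells of shared barcodes and without cells with S100b or Aldh1l1 were chosen after seeing the data.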

Other observations

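Genes that belong to the ATP synthase or complex I but are outside the symbol rule took the same course. Usmg5, a small subunit of the ATP synthase, had a mean value of 17.1 and 17.6, an R2 of 0.0838 and 0.0408, and a log2 ratio of mean values around π against around 0 of -0.34 and -0.27. Ndufb1-ps, which the rule set aside for its name, had a mean value of 8.10 and 8.78 and a log2 ratio of -0.17 and -0.16. Atpif1, the inhibitor of the ATP synthase, had 12.3 and 12.5 with a log2 ratio of -0.18 and -0.17. Uqcc2, an assembly factor of complex III, had 6.93 and 7.30 with -0.25 and -0.14, and Surf1, an assembly factor of complex IV, 0.588 and 0.580 with -0.39 and -0.47. The outer membrane channels Vdac1 and Vdac2 had log2 ratios of -0.18 and -0.18 and of -0.25 and -0.16.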
